A study of Rattus norvegicus with 36 samples.

Results

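The 44477 genomic regions described here are all those that the authors listed as differently methylated between gonocytes of gestational day 20 (GD20) and gonocytes of gestational day 18 (GD18) in the male rat. They are every row of that comparison's list, out of 60036 distinct regions over the 7 lists of the series. DNA methylation was measured in germ cells of 9 stages with 4 samples each, 36 samples in all, without any treatment. The rats were transgenic Sprague-Dawley animals of the genotype GFP-GCS, in which germ cells alone carry green fluorescent protein (GCS-EGFP). Cells carrying that protein were collected by flow sorting, and their DNA was enriched with the Rat SureSelectXT Methyl-Seq capture panel, so that regions outside the panel carry no value. The main groups are GD20 gonocytes and GD18 gonocytes, both of this one genotype, and levels at GD16 and at postnatal day 5 (PND5, spermatogonia) are set beside them where the same regions were listed there. Whether the 4 samples of a group are separate animals or pools is not stated in the labels. A region's level is the authors' mean CpG methylation of a stage, and no value per sample was used, so none of the levels below has a spread over samples or a test over samples. The read depth behind each level is unknown. RNA was not measured, so the identity of the sorted cells could not be checked against marker expression.

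Gonocytes, also called prospermatogonia, are the fetal male germ cells. After the genome-wide erasure of methylation in their precursors they stop dividing, and in rodents they acquire the paternal methylation pattern while in this arrest. In the mouse the new methylation is written by Dnmt3a together with Dnmt3l, a cofactor without catalytic activity, whereas Dnmt1 copies existing methylation at replication. The promoters of many widely expressed genes lie in CpG islands, stretches rich in CpG sites that mostly stay free of methylation.

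The promoter windows of 6 genes show the kind of sequence that was and was not listed at gene starts. The first 4 belong to the genes whose promoter regions had the largest gains from GD18 to GD20. Gmnn and Dnmt3a were added because both had listed introns and no listed promoter region. The windows come from RefSeq on the build GRCr8 and run from 250 bases before to 50 bases after the gene's start. They are Lcn5 at chr3:28871073-28871372 on the plus strand, Sla2 at chr3:165841999-165842298 on the minus strand, Agtpbp1 at chr17:5139003-5139302 on the plus strand, Kank1 at chr1:232381470-232381769 on the plus strand, Gmnn at chr17:40729584-40729883 on the plus strand and Dnmt3a at chr6:32598352-32598651 on the plus strand. No source used here names the genome build of the region lists, so a window may coincide with the listed region only in part. Each is printed 5′ to 3′ with every CG, the dinucleotide that carries the methylation, in capitals.
Lcn5: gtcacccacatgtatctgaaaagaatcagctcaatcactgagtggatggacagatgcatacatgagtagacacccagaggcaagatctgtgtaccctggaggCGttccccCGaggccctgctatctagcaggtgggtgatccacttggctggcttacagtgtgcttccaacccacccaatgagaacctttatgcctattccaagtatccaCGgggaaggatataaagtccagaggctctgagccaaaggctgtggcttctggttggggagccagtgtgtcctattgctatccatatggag
Sla2: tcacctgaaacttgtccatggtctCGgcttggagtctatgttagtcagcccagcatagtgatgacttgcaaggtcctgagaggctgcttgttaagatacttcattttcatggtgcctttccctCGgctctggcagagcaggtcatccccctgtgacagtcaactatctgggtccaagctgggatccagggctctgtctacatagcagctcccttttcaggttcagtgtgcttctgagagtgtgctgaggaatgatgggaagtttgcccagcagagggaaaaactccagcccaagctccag
Agtpbp1: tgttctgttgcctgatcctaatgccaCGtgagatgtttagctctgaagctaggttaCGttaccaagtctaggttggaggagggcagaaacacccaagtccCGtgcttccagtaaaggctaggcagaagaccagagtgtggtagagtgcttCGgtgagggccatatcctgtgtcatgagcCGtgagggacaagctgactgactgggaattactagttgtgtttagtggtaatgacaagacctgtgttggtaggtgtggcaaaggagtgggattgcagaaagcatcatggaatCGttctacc
Kank1: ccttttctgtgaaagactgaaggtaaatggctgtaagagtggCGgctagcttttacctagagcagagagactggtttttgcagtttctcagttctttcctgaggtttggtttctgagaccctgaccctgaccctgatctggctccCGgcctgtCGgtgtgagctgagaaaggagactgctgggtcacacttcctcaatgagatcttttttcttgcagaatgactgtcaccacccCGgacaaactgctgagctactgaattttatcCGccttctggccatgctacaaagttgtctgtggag
Gmnn: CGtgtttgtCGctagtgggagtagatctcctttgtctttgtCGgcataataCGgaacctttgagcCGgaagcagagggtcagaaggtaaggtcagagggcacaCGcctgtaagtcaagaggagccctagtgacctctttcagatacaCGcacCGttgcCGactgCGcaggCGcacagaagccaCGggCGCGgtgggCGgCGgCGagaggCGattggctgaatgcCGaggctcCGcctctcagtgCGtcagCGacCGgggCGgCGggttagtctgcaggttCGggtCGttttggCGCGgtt
Dnmt3a: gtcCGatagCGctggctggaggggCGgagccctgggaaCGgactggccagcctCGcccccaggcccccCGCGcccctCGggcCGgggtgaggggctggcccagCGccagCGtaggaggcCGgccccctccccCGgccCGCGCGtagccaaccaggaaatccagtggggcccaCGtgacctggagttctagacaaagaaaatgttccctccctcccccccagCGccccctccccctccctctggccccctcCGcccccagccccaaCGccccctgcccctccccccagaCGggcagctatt
The windows of Lcn5, Sla2, Agtpbp1 and Kank1 held 3, 2, 6 and 5 CG, against 29 in Gmnn and 21 in Dnmt3a. CG reads the same on both strands, and 95.9% of 13081 promoter windows of this length held at least 1. As many as the 29 of Gmnn were found in 18.6% of the windows, and as many as the 2 of Sla2 in 90.6%.

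Methylation was higher at GD20 in all 44477 regions and lower in none. The median level was 54.9% at GD20 (quartiles 46.5% and 63.1%), against 5.2% at GD18 (quartiles 4.1% and 6.6%). Within the listed regions the levels of the stages did not overlap: the lowest GD20 level was 30.9%, and the highest GD18 level was 19.6%. Every listed region gained at least 30 points, so a GD20 level of 30% or more is set by selection. At GD20, 29077 regions (65.4%) stood at 50% or more, 821 (1.85%) at 80% or more and 54 at 90% or more. Few regions were thus near full methylation at GD20, and at GD18 only 1161 regions (2.61%) reached 10%. The gain, GD20 minus GD18, had a median of 49.5 percentage points (quartiles 41.8 and 57) and ran up to 90 points. The smallest gain was 30 points, which is where the list ends, and 3828 regions (8.61%) gained less than 35 points. At that edge, introns of Thumpd1, Rhbdf1 and Kif26b and the promoter of Dao each had 30 points, with GD20 levels of 33.2% to 33.9%. Regions below 30 points were not analysed here.

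**Figure D1:**
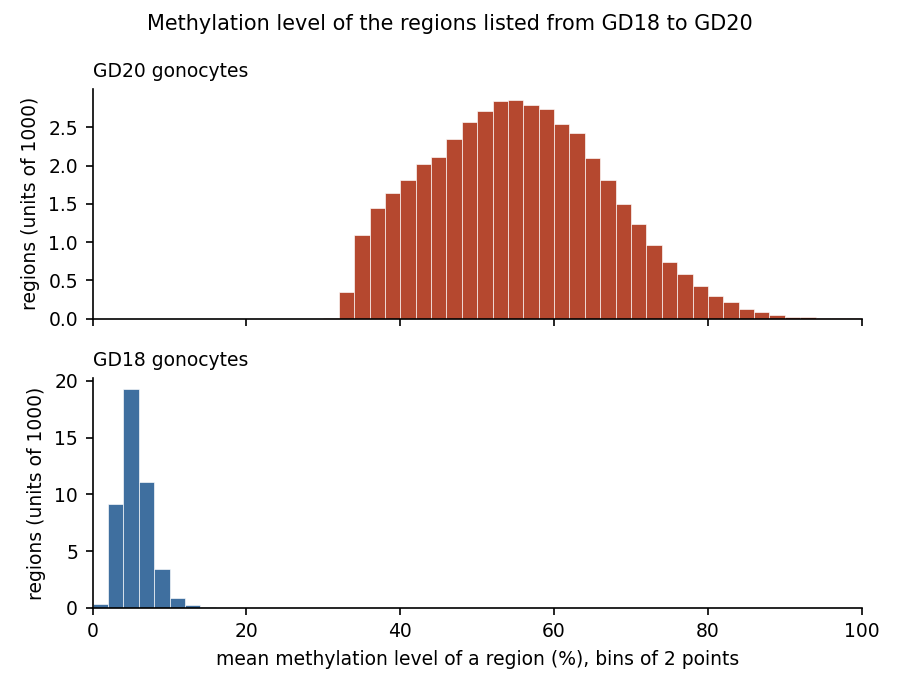
Number of listed regions, on axes in units of 1000 regions, by mean methylation level in bins of 2 percentage points, at GD20 (top) and GD18 (bottom), each with its own vertical scale. The GD20 levels spread from 30.9% to 98.2% around a median of 54.9%, and the GD18 levels stayed at or below 19.6%.

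Regions with a higher level at GD18 also had a higher level at GD20. In the decile of the list with the lowest GD18 levels, of 3.3% or less, the median level was 42.9% at GD20 and 2.9% at GD18. In the decile with the highest GD18 levels, of 8% or more, it was 68.7% at GD20 and 9% at GD18. The median gain in these outer deciles was 59.2 points for the highest and 40.2 points for the lowest, and each decile in between had a higher median GD20 level than the one before it. Across the 44477 regions Pearson's r between the GD18 and GD20 levels was 0.604 and Spearman's rank correlation 0.599. This is a description across regions, which share the same libraries, are not independent replicates and were all selected to differ by at least 30 points.

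**Figure D2:**
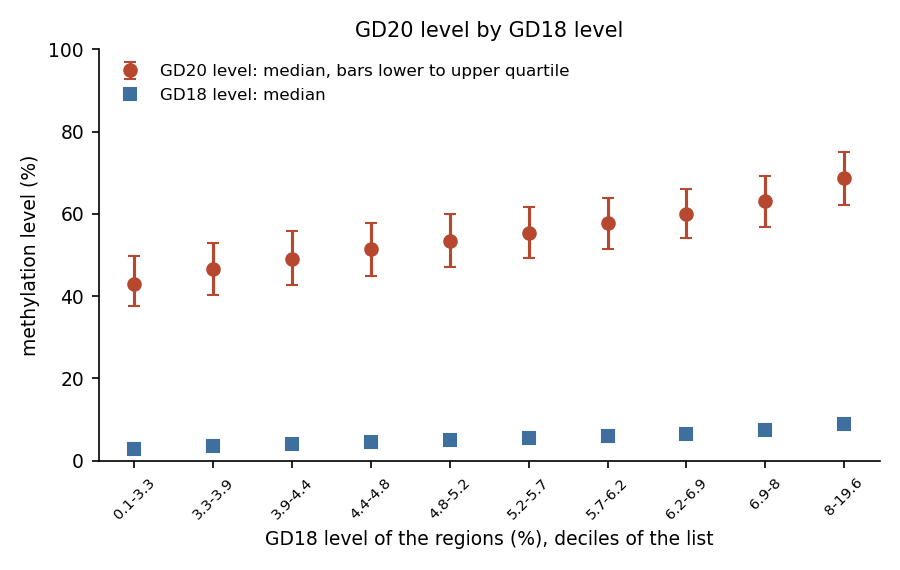
Methylation level (%) of the regions in deciles of the list ordered by GD18 level, with the GD20 median and quartiles as circles and bars and the GD18 median as squares. The GD20 median climbs over the deciles, with 42.9% in the lowest and 68.7% in the highest.

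The highest GD20 levels of regions in named genes lay inside gene bodies. An intron of Clstn1, which encodes a calsyntenin of the neuronal membrane, had 98.2% at GD20, against 10.2% at GD18 (intron 4 of 16, chr5:166584323-166584399, 6 CpGs in 77 bp). Another Clstn1 region in intron 1 had 95.2% at GD20, against 12.1% at GD18. Frmd4a, a scaffold protein of cell polarity, had 96.2% at GD20, against 9.7% at GD18, in intron 14. Ikbkb, a kinase that activates NF-kB, had 95.4% at GD20, against 14.2% at GD18, in intron 20. Exon 6 of Rnps1, a splicing and exon-junction protein, and intron 6 of Atxn10 completed this set, with 94.5% and 94.4% at GD20, against 8.6% and 14.3% at GD18. All 6 of these regions held 5 or 6 CpGs, close to the smallest number in the list. Outside annotated genes, the largest gain was 88.2 points, with 94.7% at GD20, against 6.5% at GD18 (chr9:44240749-44241113, 7 CpGs), and the next 3 such regions gained 85.2 to 86.6 points.

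The lowest GD18 levels among regions in genes with a symbol show the other end. Intron 9 of Hormad2, a protein of the meiotic chromosome axis, had 76% at GD20, against 0.1% at GD18, over 8 CpGs in 43 bp. Intron 38 of Dock9, an exchange factor for Cdc42, had 48.8% at GD20, against 0.7% at GD18. The promoter of the olfactory receptor gene Or10g9, a member of a large family of similar genes, had 32.8% at GD20, against 0.7% at GD18, and intron 1 of the kinase gene Map3k4 had 54.5% at GD20, against 0.8% at GD18. Among regions in genes with a symbol, the highest GD18 levels were found in introns of Eif2ak1, Slc10a7 and Fgfr1 and at the transcription end of Btbd16. Eif2ak1, a kinase that slows translation when heme is short, had 88.5% at GD20, against 19.6% at GD18. The other 3 had 60.4% to 89.2% at GD20, against 17.2% to 17.4% at GD18.

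Most of the annotated regions were intronic. Of the 24477 regions (55%) that the authors annotated to a gene, 19229 (78.6%) lay in introns, 2619 in exons, 941 at transcription ends, 834 in 3′ UTRs, 815 (3.33%) in promoters, 31 in 5′ UTRs and 8 in non-coding exons, and 20000 regions had no gene annotation. How many of the measured regions of each kind were not listed was not analysed here, so these shares say nothing of preference. The median gain was 51.2 points in introns (quartiles 43.9 and 58.3), 47.9 in exons, 48.5 in promoters, 44.2 in 5′ UTRs and 48 outside genes. The quartile ranges of all gene parts overlapped widely. Within genes the ends stood a little lower than the middle: the median gain was 45.4 points in 101 first exons and 45.1 points in 357 last exons, against 48.6 points in 2161 inner exons. First introns had 50.4 points and inner introns 51.5 points.

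**Figure D3:**
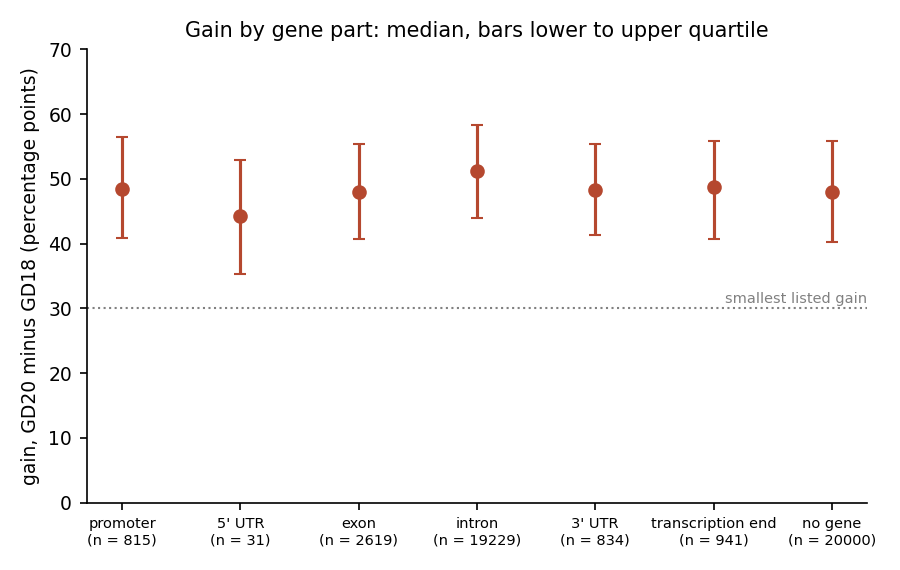
Gain from GD18 to GD20 (percentage points) by annotated gene part, as the median with quartiles and the number of regions under each part, without the 8 regions in non-coding exons (median 51.7 points). The medians drawn lie between 44.2 points (5′ UTR) and 51.2 points (intron), and the quartile bars overlap.

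The promoters that were listed were CpG-poor. The 815 promoter regions belonged to 763 genes with a symbol, and 602 of these had a RefSeq promoter window, with a median of 5 CG (quartiles 3 and 8). Genes that were listed only elsewhere had a median of 21 CG in 4949 windows, and genes without any listed region had 12 in 7530 windows. A window with 10 or more CG was present in 17.6% of the genes with a listed promoter region, in 80.4% of those listed only elsewhere and in 63.3% of all windows. The largest promoter gain was at Lcn5, an epididymal lipocalin that binds retinoic acid, with 84% at GD20, against 8.2% at GD18 (chr3:2876252-2876733, 6 CpGs), and its window printed above held 3 CG. The promoter of Sla2, an adaptor that dampens signalling of antigen receptors, had 82.3% at GD20, against 6.6% at GD18. That of Agtpbp1, which trims glutamates from tubulin and is needed for sperm formation in the mouse, had 83.4% at GD20, against 8.2% at GD18. The promoters of Kank1, an organiser of the actin cortex, and Apoa5, an apolipoprotein of triglyceride transport, had 81.2% and 80.8% at GD20, against 6.6% and 6.7% at GD18. The transcription factor gene Klf13, the ciliary gene Cep41 and the urea cycle gene Ass1 followed with 78.5% to 80.1% at GD20, against 5.4% to 8.3% at GD18. Of the promoter regions with the most CpGs, Pou6f1 held 37 CpGs with 38.3% at GD20, against 5.1% at GD18, and S100z held 34 with 54.6% at GD20, against 3.8% at GD18. These last 2 promoters were chosen after their values were seen.

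Regions held 5 to 110 CpGs (median 8) over 21 to 3216 bp (median 460). CpG-rich regions gained slightly less than CpG-poor ones. Of 4 equal classes by CpG density, the one with the most CpGs per 100 bp had a median gain of 47.8 points, against 51 points in the one with the fewest, and the middle classes lay between, at 49.1 and 50 points. Regions with over 20 CpGs had a median gain of 45.6 points, against 51.1 points in those with exactly 5. Across regions the gain had a Pearson's r of -0.0619 with CpGs per 100 bp, -0.135 with the number of CpGs and -0.0334 with length, over 44477 regions that share their libraries, which are weak relations. In the authors' deposited table the median p per region was 2.95e-07 with 5 CpGs and 3.935e-27 with over 20 CpGs, so the p follows the number of CpGs beside the size of the gain. The regions with the most CpGs had intermediate levels at GD20. The 3′ UTR of Snrk, a kinase gene, with 110 CpGs in 2702 bp, had 38% at GD20, against 4.4% at GD18. Intron 3 of Mxi1, a Myc antagonist, with 85 CpGs, had 55% at GD20, against 4.8% at GD18. The transcription end of Iffo1 and intron 5 of the pyruvate kinase gene Pkm held 65 and 57 CpGs and had 40.2% and 66.5% at GD20, against 4.2% and 6.9% at GD18.

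The gain was spread over all autosomes. Median GD20 levels ranged over the autosomes between 53.5% on chromosome 2, where GD18 had 5.1%, and 57.2% on chromosome 19, where GD18 had 5.4%. The X chromosome held 180 of the regions (0.405%, 95% Wilson interval 0.35% to 0.468%, counting error only), and their median was 51.4% at GD20 and 5% at GD18, with a gain of 46.45 points. The share of X regions was 0.628% in the list from GD20 to PND5 and 1.59% to 2.48% in the other 5 lists of the series. The 2.48% is that of the list from GD16 to GD18 and rests on 7 of 282 regions (95% Wilson interval 1.21% to 5.03%). The lists also differ in size and in the smallest change they hold. The capture panel's own share of X regions is not known here.

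The listed regions fell in 6863 genes with a symbol, of which 2999 held 1 region, 2634 held 2 to 4 and 448 held 10 or more. The genes with the most regions were long. Camta1, a calmodulin-binding transcription activator of 848 kb, held 75 regions with GD20 levels of 34.2% to 88.5% (median 50.8%), against GD18 levels of 2.5% to 11%. Abcc4, a transporter that exports cyclic nucleotides, held 60 with 34.2% to 79.3% at GD20, against 2.6% to 10.7% at GD18, in only 235 kb. The adhesion gene Tenm2 held 59, the extracellular guidance gene Reln 58, Btbd9 57 and the membrane anchor gene Ank3 55, with medians of 51.6%, 57.25%, 60% and 58.6% at GD20, against 4.9%, 5.3%, 6.5% and 5.4% at GD18. Levels within a gene varied almost as much as over the whole list. The SD of the GD20 level had a median of 10.5 points within the 448 genes of 10 or more regions, and was 11.5 points over all listed regions. Neighbouring regions were also only weakly alike. Over 5096 pairs of adjacent regions less than 1 kb apart, Pearson's r of the GD20 levels was 0.0849 and the median difference was 9.9 points, and at 10 to 100 kb r was 0.0796 over 17987 pairs and the difference 10.6 points. Pairs share their libraries, and these are descriptions across regions that were all selected to gain at least 30 points.

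Gene groups were read against the share of all genes that held a listed region. Of 16003 protein-coding genes with a curated RefSeq transcript old enough to appear in the annotation used, 6855 held at least 1 region, which is 42.8%. That share depended on gene length, with 16.8% in the shortest of 4 equal length classes, 39% and 50.55% in the middle classes and 65% in the longest. Each list below is therefore given with the share over all genes of the same length classes. A level given for a gene of these lists is that of its region with the largest gain, unless a median is named. It does not describe the whole gene. Regions that the authors did not list were not analysed here, so a gene without a listed region is not shown to be unmethylated. Nor is such a gene known to have been captured or annotated. Over all gene lists, 210 members held no listed region, and only 42 of them appear in the annotation of another list of the series. Members that were not among the 16003 genes were left out of every count, which left 23 of 34 meiosis genes, for example.

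**Figure D4:**
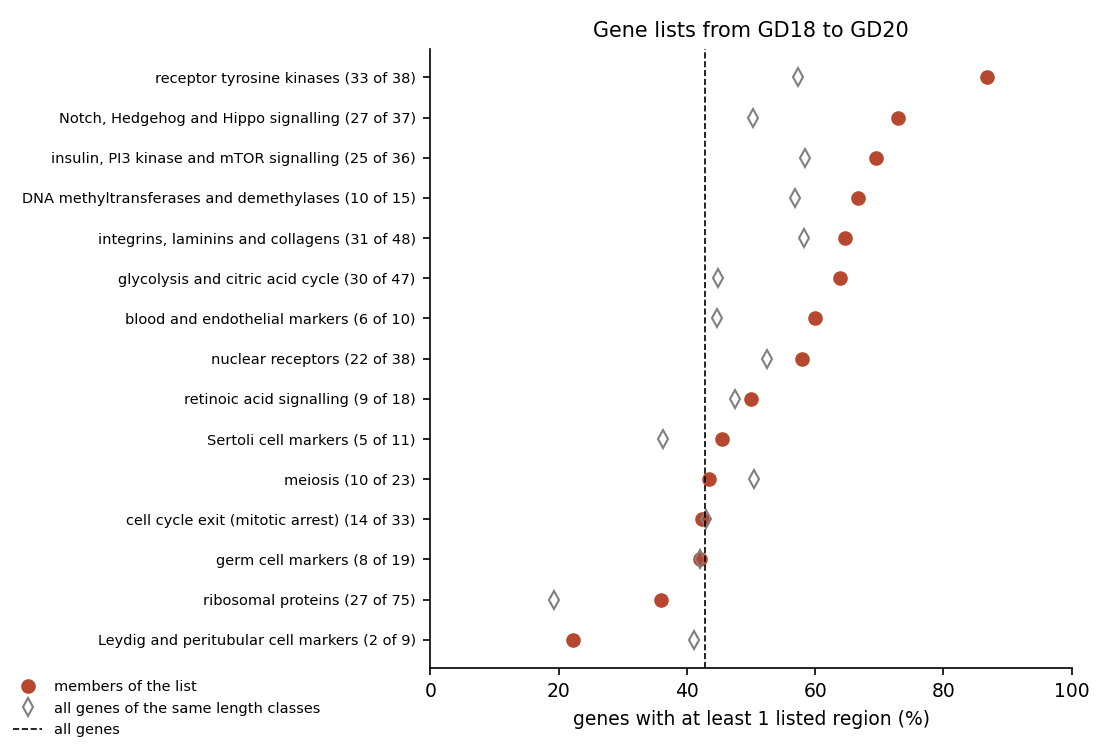
Share of genes (%) with at least 1 listed region, for each of 15 gene lists (filled circles, counts in the labels), beside the share over all genes of the same length classes (open diamonds) and over all 16003 genes (dashed line, 42.8%). Receptor tyrosine kinases lie highest (86.8%) and Leydig and peritubular cell markers lowest (22.2%).

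Among DNA methyltransferases, demethylases and their partners, 10 of 15 genes (66.7%, against 56.9% over genes of the same length) held a listed region, with a median GD20 level of 57.3% and a median GD18 level of 5% over 33 regions, none of them at a promoter. The list named 25 genes, and those not among the 16003 genes above were left out. Dnmt3a, the enzyme of new methylation, had 77.3% at GD20, against 9.6% at GD18, in intron 2 (chr6:28328119-28328498, 10 CpGs), while its promoter window printed above held 21 CG and was not listed. Exon 6 of its cofactor Dnmt3l had 64% at GD20, against 3.1% at GD18. Intron 1 of Tdg, a glycosylase of active demethylation, had 65.3% at GD20, against 5.8% at GD18. Intron 10 of Nsd2, a histone H3 lysine methyltransferase, had 62.6% at GD20, against 3.4% at GD18. Dnmt1 held 6 regions with a median of 54.2% at GD20 and 6% at GD18. Uhrf2, Mbd3, Hells and Morc1 held none.

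Of the germ cell markers, 8 of 19 genes (42.1%, against 42% over genes of the same length) held a listed region, a share at the background. Tdrd1, a component of the piRNA pathway that silences transposons, had 86.4% at GD20, against 9.2% at GD18, in intron 18. The 3′ UTR of Prdm1, a repressor that specifies germ cells, had 75.3% at GD20, against 8.2% at GD18. Intron 9 of the RNA helicase gene Ddx25 had 69.6% at GD20, against 4.4% at GD18, and intron 7 of the receptor gene Kit had 69% at GD20, against 8.9% at GD18. Ddx4, Dazl, Nanos2, Nanos3 and Pou5f1 held no listed region. Among the meiosis genes 10 of 23 (43.5%, against 50.5%) held one. Beside the Hormad2 intron, exon 7 of Mei1, which is needed for meiotic chromosome synapsis in the mouse, had 65.4% at GD20, against 5.6% at GD18, and intron 1 of the synaptonemal complex gene Syce3 had 60.5% at GD20, against 5.9% at GD18 over 22 CpGs. Sycp1, Sycp3, Stag3 and Prdm9 held none.

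Of the cell cycle genes, chosen because gonocytes are in mitotic arrest, 14 of 33 (42.4%, against 43%) held a listed region. Intron 6 of Gmnn, geminin, which blocks relicensing of replication origins, had 93.3% at GD20, against 3.7% at GD18, the largest gain among these genes at 89.6 points, over 5 CpGs in 99 bp. Cdk6, a G1 kinase, held 29 regions, of which the one in intron 4 with the largest gain had 93.1% at GD20, against 9.9% at GD18. Introns of Lin54, part of a complex that represses cell cycle genes, and of the transcription factor gene E2f3 had 77.5% and 69.8% at GD20, against 10.1% and 7.6% at GD18. Of the inhibitor genes, Cdkn1a held 1 region with 46.6% at GD20, against 5.2% at GD18, and the other 6 genes of the Cdkn family in the list held none. In retinoic acid signalling, which governs the entry into meiosis, 9 of 18 genes (50%, against 47.4%) held one. The plasma carrier gene Rbp4 had 79.5% at GD20, against 9.8% at GD18, and the synthesising enzyme gene Aldh1a2 had 74.9% at GD20, against 9.6% at GD18. The receptor genes Rarb and Rxra had 74.4% and 72.8% at GD20, against 6.7% for both at GD18. Over all their listed regions the medians were 56.85% and 63% at GD20, against 5.05% and 6.7% at GD18. The degrading enzyme gene Cyp26b1 held none.

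Of the receptor tyrosine kinases, 33 of 38 (86.8%, against 57.3% over genes of the same length) held a listed region, 230 regions in all, with a median gain of 50.6 points, against 49.5 over all regions. Intron 6 of the neurotrophin receptor gene Ntrk2 had 86.6% at GD20, against 7.3% at GD18. Exon 8 of Pdgfrb and intron 10 of Flt4, receptors of platelet-derived and vascular endothelial growth factors, had 79.5% and 81.6% at GD20, against 2.7% and 9.4% at GD18. The 5 without one were Erbb4, Kdr, Ntrk3, Ltk and Tek. In Notch, Hedgehog and Hippo signalling 27 of 37 (73%, against 50.3%) held one. Intron 31 of Notch1 had 88.3% at GD20, against 5% at GD18, and intron 1 of Sufu, an inhibitor in the Hedgehog pathway, had 80.4% at GD20, against 7.1% at GD18. Tead1 and Stk4, a transcription factor and a kinase of the Hippo pathway, had 78.2% and 78.9% at GD20, against 5.8% and 7.3% at GD18. Their medians over all listed regions were 61.4% and 56.3% at GD20, against 4.6% and 6.4% at GD18. Of the integrins, laminins and collagens 31 of 48 (64.6%, against 58.2%) held one. Intron 1 of Itga6, the laminin-binding integrin found on spermatogonial stem cells, had 85.5% at GD20, against 7.9% at GD18, and Col11a2, Lama1 and Col18a1 had 77.3% to 81.8% at GD20, against 4% to 4.9% at GD18. The medians of Col11a2, Lama1 and Col18a1 over all their listed regions were 45.05%, 56.95% and 61.6% at GD20, against 4.35%, 5.5% and 6.2% at GD18.

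In insulin, PI3 kinase and mTOR signalling 25 of 36 genes (69.4%, against 58.4%) held a listed region. Intron 46 of Mtor, the growth-controlling kinase, had 86% at GD20, against 10.1% at GD18, and intron 1 of Rptor, its scaffold, had 80.3% at GD20, against 8.3% at GD18. Intron 1 of Eif4ebp1, a translation repressor that Mtor phosphorylates, had 77.3% at GD20, against 3.8% at GD18, and intron 1 of Pik3c2b had 80.9% at GD20, against 6.8% at GD18. Of the nuclear receptors 22 of 38 (57.9%, against 52.5%) held one. Vdr, the vitamin D receptor gene, had 85.2% at GD20, against 9.5% at GD18. Esrrg, Nr3c2 and Hnf4a had 75.9% to 77.2% at GD20, against 5.1% to 6.7% at GD18. Over all listed regions of each of these genes and of Vdr, the medians were 51.25% to 59.7% at GD20, against 4.75% to 5.5% at GD18. In glycolysis and the citric acid cycle 30 of 47 genes (63.8%, against 44.8%) held one. Pdhb, a subunit of pyruvate dehydrogenase, had 85.8% at GD20, against 10.1% at GD18, and Sdhb, Suclg1 and Eno1 had 71.4% to 73% at GD20, against 3.7% to 5.9% at GD18. Of the ribosomal protein genes, which are short, 27 of 75 (36%, against 19.3%) held one, with a low median GD20 level of 50.35%, against 4.45% at GD18. Rpl22, Rps24 and Rps21 had 70.2% to 76.8% at GD20, against 5% to 6.8% at GD18, and exon 5 of Rpl3 had 62.2% at GD20, against 2.8% at GD18. These genes have many near-identical copies in the genome, so the place of their reads, and with it this count, is uncertain.

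Genes that mark the other cells of the testis were listed as well. Sertoli cell markers held regions in 5 of 11 genes (45.5%, against 36.4%), Leydig and peritubular markers in 2 of 9 (22.2%, against 41.1%) and blood and endothelial markers in 6 of 10 (60%, against 44.8%). Intron 1 of Dmrt1, a transcription factor gene also active in germ cells, had 59.7% at GD20, against 3.5% at GD18, and Sox9, the Sertoli cell transcription factor gene, had 49% at GD20, against 6.2% at GD18, in its 3′ UTR. Nr5a1, which drives steroid synthesis, had 51.1% at GD20, against 4.1% at GD18, and Acta2, smooth muscle actin, had 65% at GD20, against 4.3% at GD18. Pecam1 of the endothelium had 71.1% at GD20, against 7.3% at GD18, and the promoter of the macrophage receptor gene Csf1r had 59% at GD20, against 5.8% at GD18. The share of other cells in the sorted samples was not tested.

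For part of the regions the lists also give the stage before or after. Those comparisons share the GD18 or the GD20 samples with this one, so the levels are set side by side only. For only 114 regions (0.256%) the list from GD16 to GD18 gave a level at GD16. Their median was 36.95% at GD16 (quartiles 35.3% and 40.7%), 4.2% at GD18 and 53.5% at GD20. At GD20, 105 of them stood above their GD16 level and 9 below. A region enters this set only if it was listed as changed from GD16 to GD18 and then gained at least 30 points to GD20. The change before GD18 and the rise after it are thus set by selection. An intron of Dlgap2, a postsynaptic scaffold, had 36.9% at GD16, 3% at GD18 and 83.7% at GD20. Exon 2 of Got2, a mitochondrial aminotransferase, had 37.7% at GD16, 6.7% at GD18 and 71.8% at GD20. Introns of Ldlrad4 and Ube3d had 42% and 36.1% at GD16, 4.8% and 5.4% at GD18, and 70.9% and 71.1% at GD20.

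For 36388 regions (81.8%) the list from GD20 to PND5 gave a level in spermatogonia. Their median was 5% at GD18, 52.2% at GD20 and 97.1% at PND5 (quartiles 95.1% and 98.1%). By GD20 level, those at 30% to 40% at GD20 had a PND5 median of 95.2%, those at 40% to 50% had 96.6%, those at 50% to 60% had 97.2% and those at 60% to 70% had 97.8%. A region enters these bands only with a further change of at least 30 points, so one that gained after 60% at GD20 stands at 90% or more at PND5 by selection. The 3392 regions at 70% or less at GD20 without a PND5 level, with a median of 67.1% at GD20, are not in them. The 110 CpGs of the Snrk 3′ UTR stayed lower than most, with 4.4% at GD18, 38% at GD20 and 82.9% at PND5. No region above 70% at GD20 has a PND5 level, since a further 30 points could not be gained there. These 4697 regions (10.6% of the list) made up 58.1% of the 8083 regions that the authors placed in their early group, and 3386 regions of that group stood at 70% or less at GD20. In 3 regions the level was lower at PND5 than at GD20. These were chosen after their values were seen. They were an intron of the syndecan gene Sdc3, with 3.6% at GD18, 66.5% at GD20 and 34.8% at PND5, and regions without a gene on chromosomes 3 and 10, with 3.1% and 4.6% at GD18, 35.1% and 38.7% at GD20, and 1.6% and 5.4% at PND5.

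**Figure D5:**
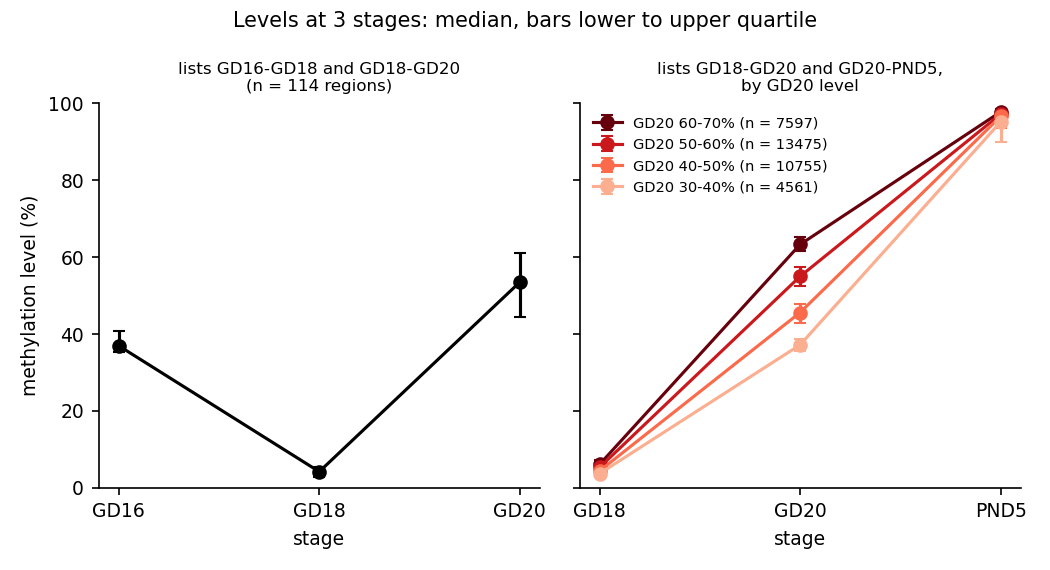
Methylation level (%) by stage, as medians with quartile bars, for the 114 regions with a GD16 level (left) and for the 36388 regions with a PND5 level, divided by their GD20 level (right). The left set had 36.95% at GD16, 4.2% at GD18 and 53.5% at GD20, and the 4 bands on the right, apart at GD20, had PND5 medians of 95.2% to 97.8%. All regions drawn were selected as changed in both intervals shown.

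A small part of the regions was listed again during spermatid maturation, in comparisons that share no samples with the fetal ones. Spermatids are grouped in the labels as R1-8, R9-12, R13-14 and R15-17. In all, 2265 regions (5.09%) had the same start and end in at least 1 of the 4 later lists. They made up 17% of the list from R1-8 to R9-12 spermatids (633 regions, 1.42% of the fetal list), 22.8% of the list from R9-12 to R13-14 (1280 regions, 2.88%), 37.4% of the list from R13-14 to R15-17 (1131 regions, 2.54%) and 9.99% of the list from R15-17 to spermatozoa (169 regions, 0.38%). In spermatids the shared regions were mostly highly methylated before they changed. At R1-8, 91.3% of the shared regions stood at 80% or more, against 10.3% of the other regions of that list. The median at R1-8 was 96.8% in the shared regions and 13.8% in the others. A region that starts near full methylation has little room to gain, and one that starts low has little to lose. Whether the starting level accounts for the directions below was not tested. Of the shared regions 60 of 633 (9.48%) were higher at R9-12 than at R1-8, against 78.5% of the other regions of that list. At R13-14, 461 of 1280 (36%) were higher than at R9-12, against 14.9% of the others. The median at R9-12 was 95.25% in these shared regions and 26.65% in the others. At R15-17, 1061 of 1131 (93.8%) were higher than at R13-14, against 60.5% of the others, and in spermatozoa 69 of 169 (40.8%) were higher than at R15-17, against 64.3% of the others. The median over the shared regions was 86.4% at R13-14, against 95.25% at R9-12, and in the next list 97.9% at R15-17, against 85.1% at R13-14. Introns of Slc41a2, a magnesium transporter, and Csnk1d, a casein kinase, followed this course. Both lists use the same R13-14 samples, so the fall to R13-14 and the rise after it are not independent. Slc41a2 had 2.9% at GD18, 84% at GD20, 100% at R9-12, 84.3% at R13-14 and 99.7% at R15-17. Csnk1d had 11.7% at GD18, 92% at GD20, 97.7% at R9-12, 83.2% at R13-14 and 98.7% at R15-17. Intron 1 of the calcium channel subunit gene Cacng4 had 7.5% at GD18, 85.6% at GD20, 83.5% at R1-8 and 70.8% at R9-12. The X-linked Supt20hl1 had 4% at GD18, 88.7% at GD20, 86.6% at R15-17 and 97.1% in spermatozoa.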

How the data were processed

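DNA methylation of sorted rat germ cells was measured with capture bisulfite sequencing. Reads were handled with Bowtie2 and Bismark 0.19.0, according to the submitters' processing notes. Per the design text, levels were taken per locus and sample and joined into segments of at least 50 bp, yet 65 listed regions were shorter. No source used here gives the genome build, the coverage minimum or the depth. The authors deposited, per region, the mean methylation of each stage as a fraction, their difference, a p-value and an adjusted p-value from a test named in the headers without its unit of replication, the number of CpGs and the length, per the file headers. Fractions are printed as percent. Coordinates are those of the region lists, and the authors' annotation starts 1 bp higher. Of the annotation rows 5 met no listed region.

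All other values were computed with Python 3.11.15, pandas 2.3.3, numpy 2.4.6 and scipy 1.17.1, and plots were drawn with matplotlib 3.10.9. Scripts were tested on simulated data. Transcripts were matched to RefSeq symbols (GRCr8) for 23025 regions (94.1% of those annotated), and 7 of them on another chromosome than RefSeq gives, Rpl8 among them, lost their symbol. The gene background left out 2536 genes whose curated transcripts are all numbered past those of the authors' annotation. With them the share of genes with a region was 37%. This was chosen after seeing the data. With no value per sample, medians, quartiles and counts are descriptions without tests. The members, gene lists and rules were chosen with earlier results of these data known. Regions were named by highest GD20 level (6), promoter gain (8), CpG number (5), lowest and highest GD18 level (4 each), gain outside genes (4), gain in each gene list (up to 4), and gain among regions listed at another stage (4), each with at least 5 CpGs where level or gain decided and 3 in gene lists. The 6 genes with the most regions were also named. A few members that these rules name, and 1 gene list, are not reported here. The 4 regions at the edge of the list, members without a listed region, and the values of Dnmt1 and Cdkn1a were named after their values were seen. Alternatives were at least 5 or 10 CpGs, at least 50 bp, an adjusted p of at most 0.001, a gain of at least 40 points, autosomes only, other overlap rules, weighting by CpGs and CpG number in place of density.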

Additional observations from a re-analysis of the deposited data

How the results depend on the processing

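Of 65 values computed under the alternatives for 10 results, 50 stayed within the counting interval of the reported value or within 1.5 times a count, 15 moved, and no difference changed sign. Restricting the list to gains of at least 40 points left 35565 regions with medians of 58% at GD20 and 5.6% at GD18, a median gain of 52.3 points, 57.1% in genes, a difference of -2.3 points between the densest and the sparsest CpG class (-3.2 in the full list), and 4.64% also listed in spermatids. There the difference in median GD20 level between X and autosomes was -1 point (-3.5 in the full list), and that in median gain between promoters and introns was -1.5 points (-2.7 in the full list). Regions of at least 10 CpGs, an alternative chosen after seeing the data, numbered 16820 in 3959 genes, with 53.5% at GD20, 5.1% at GD18, a gain of 48.3 points, 58.3% in genes and 3.66% also listed in spermatids. Weighting by CpGs gave 54.1% at GD20 and a gain of 48.8 points. These restrictions remove regions by their gain or size, which shifts the medians by construction. The minimum of 5 CpGs changed nothing, since no region held fewer. The minimum of 50 bp and the adjusted p limit left 44412 and 44410 regions, so they could hardly move a result. The 50 values that stayed include those of these settings. No paired analysis was possible because the lists hold stage means only, and for the same reason no sample could be left out. The spread between samples and the depth behind each level are unknown, so no gain can be set against the variation between samples.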

Other observations

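The authors also listed 45 CpG regions as reprogrammed, and 8 of them overlapped regions that gained methylation between GD18 and GD20. All 8 lay in introns, of Camta1, Nsd3, Fry, Aff1, Pdia5, Kif13a, Ppil1 and Ank1. Introns held 78.6% of all annotated regions of the list. The share of all captured regions that gained is not known here, so the overlap has no background to be read against. Kif13a, a kinesin of endosome transport, had 5.2% at GD18, 51.4% at GD20 and 98.8% at PND5 over 30 CpGs. Ank1, the ankyrin of the red cell membrane, had 4.9% at GD18, 49% at GD20 and 90.4% at PND5 over 33 CpGs. Nsd3, a histone methyltransferase, had 4.8% at GD18, 62.6% at GD20 and 95.6% at PND5. Ppil1, with the lowest GD20 level of the 8, had 4.5% at GD18, 37.9% at GD20 and 94.4% at PND5. Fry, with the lowest PND5 level, had 3.4% at GD18, 40.4% at GD20 and 84.9% at PND5.

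Among genes with 10 or more listed regions the median GD20 level ran between 42.4% in Tmem232 (11 regions) and 69.95% in Wnk2 (12 regions), against GD18 medians of 4.2% and 6.7%. Wnk2, a kinase that regulates ion transport, ranged over 53.1% to 87.4% at GD20, against 4.6% to 11.4% at GD18. Tmem232 ranged over 35.1% to 83.5% at GD20, against 2.5% to 6.9% at GD18. These genes were chosen after their values were seen.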
